A study of Mus musculus with 16 samples.

Results

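The genes described here are 10 tubulin and actin genes of mouse embryonic stem cells (ESCs), namely the α-tubulins Tuba1a, Tuba1b and Tuba1c, the β-tubulins Tubb2a, Tubb2b, Tubb4b, Tubb5 and Tubb6, and the cytoplasmic actins Actb and Actg1. They were taken by symbol from the 46983 genes of the count table. All 10 were among the 12805 genes with a CPM (count scaled to a common library size) of at least 1 in at least 10 of the 16 libraries, so none was lost to this filter and none passed it through 1 group alone. The cells were 46C ESCs of strain 129Ola, which express GFP from the Sox1 locus and were kept in medium with leukaemia inhibitory factor. They were transfected with an siRNA against RAM (siRAM) or with a non-targeting control (Ct), and were harvested 48 hr after transfection, following a brief incubation with cycloheximide, which holds ribosomes on mRNA. From each lysate a part was kept as cytoplasmic input, and gradient fractions 17 to 22 of the rest were pooled as polysomes. This gave 4 groups (input Ct, input siRAM, polysome Ct and polysome siRAM) of 4 libraries each. Both siRNA groups come from the same single cell line, and the depletion was transient and partial.

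Microtubules are polymers of α- and β-tubulin dimers, and microfilaments are polymers of actin, so these genes supply the bulk of the cytoskeleton. Their mRNA levels are known to answer to the state of the polymer. When free tubulin dimers are in excess, the protein TTC5 recognises the first residues of nascent tubulin on the ribosome and the mRNA is degraded, which is called tubulin autoregulation. Free actin monomers hold back the cofactors of serum response factor (SRF), a transcription factor that drives actin genes through a DNA element called the CArG box. RAM, encoded by Ramac, is the activating subunit of RNMT, the enzyme that methylates the mRNA cap on which translation initiation depends.

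Autoregulation acts through the start of the reading frame, so the first 36 coding bases are shown for 2 members of each family, with the first 4 codons in capitals (GENCODE annotation of GRCm38, 5′ to 3′).
Tuba1a: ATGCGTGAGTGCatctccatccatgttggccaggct
Tuba1b: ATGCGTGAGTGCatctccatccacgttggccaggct
Tubb2a: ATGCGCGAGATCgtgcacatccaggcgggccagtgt
Tubb5: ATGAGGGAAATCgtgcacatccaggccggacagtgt
Actb: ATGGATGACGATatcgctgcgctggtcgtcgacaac
Actg1: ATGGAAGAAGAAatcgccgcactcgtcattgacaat
The α-tubulins shared their first 4 codons, Tuba1c included, and Tuba1a and Tuba1b had 98.3% identical bases over a coding sequence of 1356 bases. Tubb2a and Tubb2b were 96.5% identical, while the other pairs of β-tubulins ranged from 80.2% (Tubb5 and Tubb6) to 84.6% (Tubb2a and Tubb5). Actb and Actg1 were 88.7% identical.

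This likeness limits what a 75-base read can assign. Of the 75-base windows of the main transcript, 68.2% in Tuba1a, 71.9% in Tuba1b and 56.7% in Tuba1c also occurred in another annotated gene. The share was 43.2% in Tubb2a, 32.2% in Tubb2b, 37.8% in Tubb4b and 54.5% in Actg1, with pseudogenes as the partners of Tubb4b and Actg1. It was 2.6% in Actb and 0% in Tubb5 and Tubb6. How the counting treated reads within shared windows is not given in the sources used here, so counts of the α-tubulins, Tubb2a, Tubb2b, Tubb4b and Actg1 are uncertain by the reads that fall there. Tuba1b (chromosome 15, 98931425 to 98934565, GRCm38, minus strand) and Tuba1a (98949837 to 98953703, minus strand) are neighbours, and Tuba1c lies at 99029891 to 99038110 on the plus strand of the same chromosome. Tubb2a (34074274 to 34078007) and Tubb2b (34126748 to 34130466) are neighbours on the minus strand of chromosome 13.

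RAM depletion was checked first. Ramac (chromosome 7, 81762925 to 81769491) had 201, 202, 197 and 206 counts in the 4 input Ct libraries and 57, 46, 58 and 56 in the input siRAM libraries, and its mean CPM in siRAM was 28.0% of that in Ct. In polysomes it had 122, 130, 156 and 256 counts against 16, 5, 45 and 44. The groups did not overlap in either fraction, and the label of each library held. All 6 ESC markers examined were above 1 CPM in every group, with a summed level of 1838 to 2099 CPM in input Ct and 1656 to 1846 CPM in input siRAM. Libraries held 16647523 to 20147833 counts, and CPM values below were scaled over all 16 libraries by edgeR's TMM method.

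Levels were compared between genes as CPM per kilobase of exon in input Ct. Actb was the highest at 723 ± 92.3 (SD, n = 4 libraries, as for all values given with ±). The major β-tubulins Tubb5 and Tubb4b, both broadly expressed, followed with 258 ± 28.6 and 181 ± 15.1 CPM per kilobase. Tuba1b, the most abundant α-tubulin, stood at 88.0 ± 13.2 and the second cytoplasmic actin Actg1 at 86.3 ± 10.7, and their libraries overlapped. Tubb2b had 46.8 ± 4.54, Tuba1c 35.1 ± 3.62 and Tuba1a 34.1 ± 1.78 CPM per kilobase, with Tuba1c and Tuba1a again overlapping. Tubb2a, like Tubb2b and Tuba1a best known from neurons, had 24.9 ± 1.46 and Tubb6 had 20.4 ± 1.55. The other 7 neighbouring pairs in this order did not overlap. Dividing CPM by the number of windows found in no other gene, in place of length, changed the order. Actb then had 1077 ± 138 CPM per 1000 such windows, Tubb4b 399 ± 33.3, Tuba1b 352 ± 52.8, Tubb5 333 ± 36.9 and Actg1 268 ± 33.2. These values hold only if reads in shared windows were left out of the counts. The order within the α-tubulins and among the abundant genes therefore rests on how shared reads are treated.

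**Figure D1:**
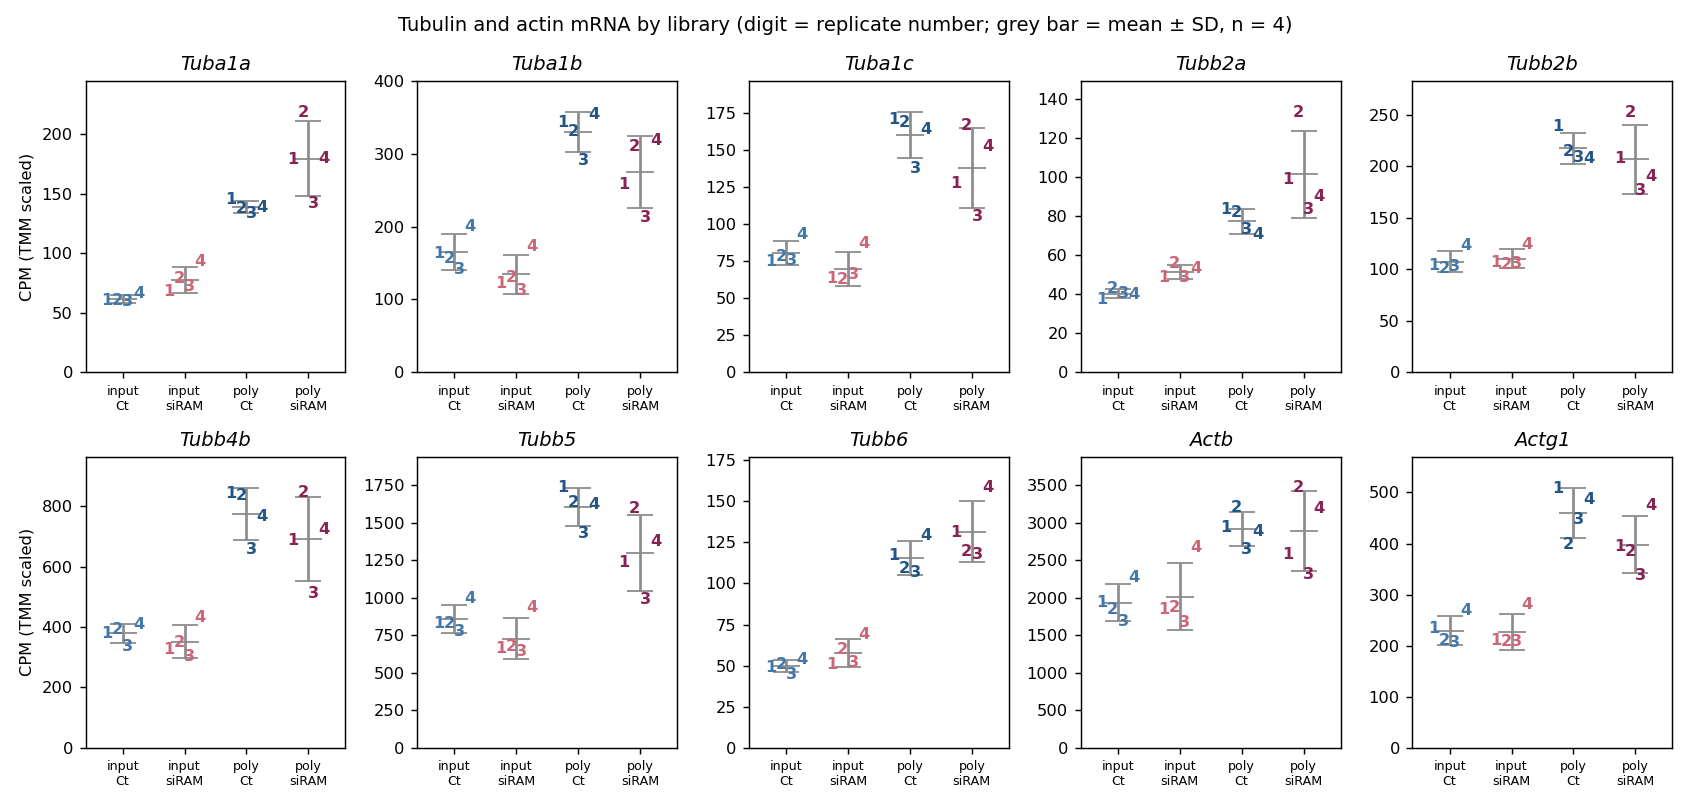
CPM of each of the 10 genes (vertical axes, each from 0) in the 4 groups of libraries; digits are replicate numbers and grey bars give the mean ± SD of 4 libraries. Polysome libraries lie above input libraries of the same siRNA for every gene but Actb in siRAM, where the groups overlap, and in input only Tuba1a and Tubb2a have siRAM libraries that all lie above all Ct libraries.

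The question of the input comparison is which cytoplasmic transcripts depend on RAM. Both genes that rose are minor isotypes, Tuba1a of α-tubulin and Tubb2a of β-tubulin. Of the 10 genes, 2 were higher and 0 were lower at an adjusted p under 0.05 (quasi-likelihood test of edgeR, Benjamini-Hochberg over all genes tested), where 6.95% of all genes tested were called higher and 5.94% lower. Since bulk RNA was measured, a change in RNA per cell and a change in the share of cells that express a gene cannot be told apart here.

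Tuba1a had 60.5, 60.0, 59.3 and 66.2 CPM in the input Ct libraries 1 to 4 and 67.9, 78.9, 71.6 and 92.7 CPM in the siRAM libraries. Every siRAM library was above every Ct library. The fold change was 1.26 (95% interval 1.10 to 1.45), or 0.34 on the log2 scale with a standard error of 0.09 and an adjusted p of 0.0322 in edgeR. Tubb2a had 37.3, 43.1, 40.0 and 39.9 CPM in Ct and 48.4, 55.4, 48.6 and 52.9 CPM in siRAM, again with no overlap. Its fold change was 1.28 (95% interval 1.14 to 1.43), with a log2 value of 0.35, a standard error of 0.07 and an adjusted p of 0.00852 in edgeR. Groups without overlap were seen in 9.39% of all genes tested with siRAM higher and in 8.62% with siRAM lower.

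Same-numbered libraries deviated from their group means together, so the comparison was repeated with the replicate number as a block. With the replicate block, 3 genes were lower and 3 higher, where 19.0% of all genes tested were called lower and 20.3% higher. Tuba1a and Tubb2a were joined by Tubb6, and the abundant isotypes Tuba1b and Tubb5 fell with Tuba1c. Tuba1b had 162, 156, 142 and 199.7 CPM in Ct and 122, 129.9, 113 and 172 CPM in siRAM. The groups overlapped through the high replicate 4, yet in each same-numbered pair siRAM was lower, at 0.749, 0.831, 0.796 and 0.864 of Ct. On the log2 scale this was a difference of -0.30 without the block (adjusted p = 0.158, standard error 0.13) and of -0.31 with it (adjusted p = 1.6e-05, standard error 0.04). Tubb5 had 829, 827, 777 and 995 CPM in Ct and 660.1, 673, 639 and 932 CPM in siRAM. It was lower in 4 of 4 pairs, with a log2 fold change of -0.24 (adjusted p = 0.223) without the block and -0.25 (adjusted p = 0.00018) with it.

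Tuba1c was likewise lower in 4 of 4 pairs, at 0.801 to 0.940 of Ct, with a log2 fold change of -0.21 and adjusted p-values of 0.241 without and 0.00119 with the replicate block. Tubb6, a β-tubulin with no shared read windows, was higher in 4 of 4 pairs, at 1.03 to 1.27 of Ct, with a log2 fold change of 0.22 (adjusted p = 0.173) without the block and 0.21 (adjusted p = 0.00296) with it. Tubb4b, below Tubb5 per kilobase of exon and above it per window found in no other gene, was lower in 3 of 4 pairs. It did not pass in either fit, with a log2 value of -0.11 without the block and -0.12 with it (adjusted p = 0.551 and 0.0554). Tubb2b had 103, 100.4, 103 and 123 CPM in Ct and 106, 105, 106 and 124 CPM in siRAM. Its log2 fold change of 0.04 had a 95% interval of -0.15 to 0.22 without the block. Tubb2b was higher in 4 of 4 pairs, at 1.01 to 1.04 of Ct, and was not called in either fit. Tubb2a, its neighbour on chromosome 13, was at 1.21 to 1.33 of Ct in these pairs. That difference between the neighbours was not tested.

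Since Tuba1a and Tubb2a are high in neurons, markers of neural progenitors were read beside them. The summed level of the 4 markers Sox1, Pax6, Nes and Tubb3 was 71.6 to 83.6 CPM in input Ct and 77.7 to 91.9 CPM in input siRAM, and none of them was called without the block. Tubb3, the β-tubulin that marks neurons, had 32.8 and 33.6 CPM with a log2 fold change of 0.03 (adjusted p = 0.934). With the block Nes rose by 0.43 and Pax6 fell by 0.51 on the log2 scale. Of the 6 ESC markers, 2 fell without the block, Nanog by 0.29 and Esrrb by 0.25, and 5 fell with it, Pou5f1 by 0.19, Klf4 by 0.14 and Zfp42 by 0.11 besides these. Of 4 primitive endoderm markers, Gata6 rose by 0.61 and Dab2 by 0.55 without the block. Of 4 trophoblast markers, Tfap2c fell by 0.38 without the block, and of 4 mesendoderm markers Eomes fell by 0.32 with it. The part of such cells in the tubulin values was not tested.

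The actins showed no call in input. Actb had 1943, 1847, 1683 and 2270.1 CPM in Ct and 1849, 1874, 1667 and 2663 CPM in siRAM, with siRAM higher in 2 of 4 pairs. Its log2 fold change was 0.05 with a 95% interval of -0.25 to 0.36 without the block, and -0.06 to 0.14 with it. Actg1 had 234, 209.5, 207 and 268 CPM in Ct and 211, 208, 209 and 279.7 CPM in siRAM, with a log2 fold change of -0.02 (95% interval -0.26 to 0.22, and -0.12 to 0.07 with the block). The median over the 10 genes was 0.01 on the log2 scale and that over all genes tested was 0.00.

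Replicate 4 stood apart in input, being the highest library for 9 of the 10 genes in Ct and for 9 in siRAM, all but Tubb2a. Without input siRAM replicate 4, 5 genes were called, with Tuba1b (log2 fold change -0.44), Tuba1c (-0.33) and Tubb5 (-0.38) lower and Tuba1a (0.24) and Tubb2a (0.34) higher. The call of Tuba1a was lost without input Ct replicate 1, 2 or 3 or input siRAM replicate 2, where its adjusted p was 0.0610 to 0.0903 in edgeR and its log2 fold change 0.32 to 0.33. It was also lost with scaling by library size alone, and with all 16 libraries in one fit both calls were lost (adjusted p = 0.294 for Tuba1a and 0.261 for Tubb2a). The number of genes called in input over the whole table moved with these libraries as well, from 1651 with all to 2506 without input siRAM replicate 4.

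**Figure D2:**
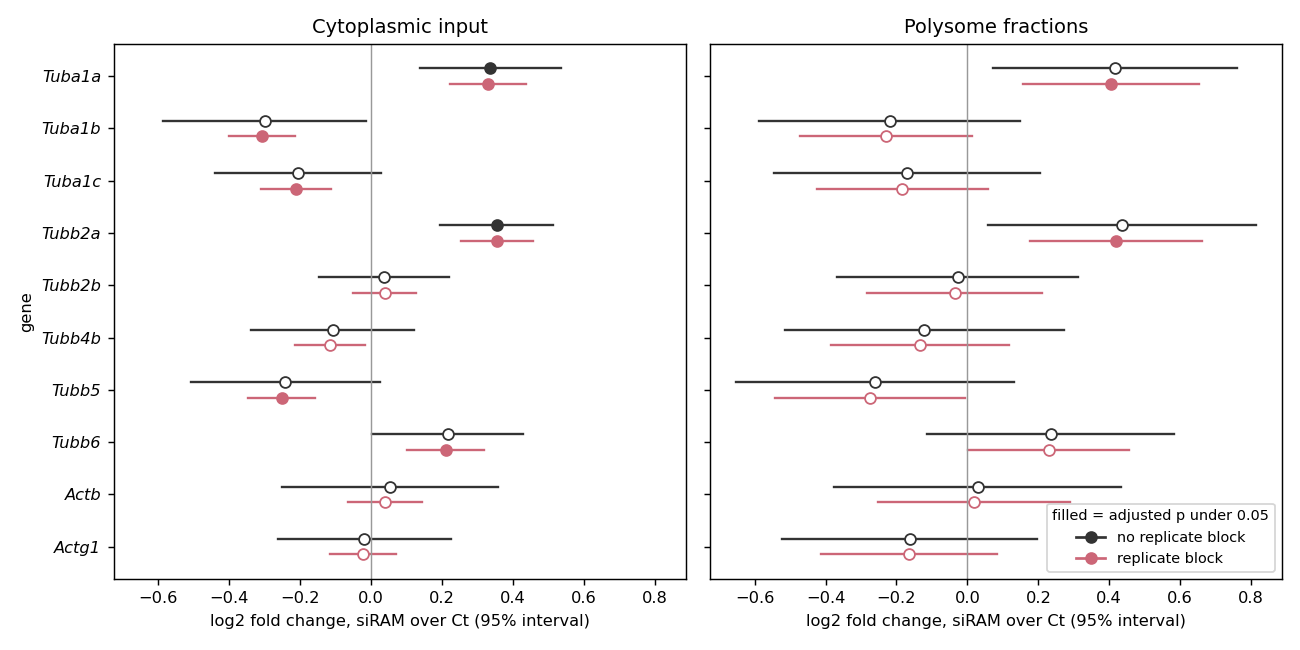
Log2 fold change of siRAM over Ct for the 10 genes in input (left) and polysomes (right), with 95% intervals of edgeR's fit without (black) and with (red) the replicate block; filled points have an adjusted p under 0.05. In both fractions Tuba1a, Tubb2a and Tubb6 lie to the right of 0 and Tuba1b, Tuba1c, Tubb4b and Tubb5 to the left, and the block narrows the intervals and leaves the points in place.

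Ratios of counts within a library do not depend on how libraries are scaled, and give the shift between isotypes in read counts. They still rest on how reads in shared windows were counted. In the annotation used here, the gene Gm49450 also overlaps both Tuba1a and Tuba1b on the same strand. The ratios join genes chosen with the changes above in view, so they are given as a description with no test. The count ratio of Tuba1a to Tuba1b was 0.373, 0.384, 0.419 and 0.332 in input Ct and 0.558, 0.607, 0.636 and 0.538 in input siRAM. In polysomes it was 0.391 to 0.457 in Ct and 0.562 to 0.705 in siRAM. The siRAM libraries were above the Ct libraries in both fractions, with replicate 4 the lowest in every group. The ratio of Tubb2a to Tubb5 was 0.0401 to 0.0521 in input Ct and 0.0568 to 0.0824 in input siRAM, and 0.0437 to 0.0512 against 0.0657 to 0.0840 in polysomes. The ratio of Tubb2a to Tubb2b overlapped in input, at 0.325 to 0.429 in Ct and 0.426 to 0.529 in siRAM, and did not in polysomes, at 0.340 to 0.383 and 0.472 to 0.527. It was higher in siRAM in 4 of 4 pairs of each fraction. The ratio of Actg1 to Actb was 0.113 to 0.123 in input Ct and 0.105 to 0.125 in input siRAM, and in polysomes 0.124 to 0.173 and 0.111 to 0.153, so the groups overlapped in both fractions. In same-numbered pairs it was lower in siRAM in 3 of 4 in input, and in 4 of 4 in polysomes at 0.864 to 0.897 of Ct.

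Shares within a family cover only the genes described here, and were taken from CPM per kilobase of exon, not from counts. Of the 3 α-tubulins, Tuba1a went from 21.8% ± 1.34 in input Ct to 29.8% ± 1.40 in input siRAM. Tuba1b went from 55.8% ± 1.96 to 49.1% ± 1.71. Tuba1c was 22.4% ± 0.837 and 21.0% ± 1.20. Among the 5 β-tubulins, Tubb2a went from 4.72% ± 0.479 to 6.58% ± 0.788, Tubb6 from 3.84% ± 0.0961 to 4.84% ± 0.266 and Tubb5 from 48.5% ± 1.28 to 44.4% ± 1.61. Tubb4b held 34.2% ± 1.25 and 34.3% ± 0.725. These 3 α-tubulins together had 306.8 ± 35.7 CPM in input Ct and 282 ± 47.9 in input siRAM. The 5 β-tubulins had 1433 ± 135 and 1297 ± 211, and both actins 2165 ± 275 and 2240.2 ± 478. The ranges overlapped in each case. The sums leave out Tuba4a (137 CPM in input Ct and 114 in input siRAM), Tuba3a (54.2 and 59.5), Tuba3b (21.0 and 22.7) and Tubb3 (32.8 and 33.6). In same-numbered pairs of input, both of these tubulin sums were lower in siRAM in 4 of 4. They stood at 0.850 to 0.982 of Ct for α and 0.852 to 0.992 for β. The sum of the actins was lower in 2 of 4.

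**Figure D3:**
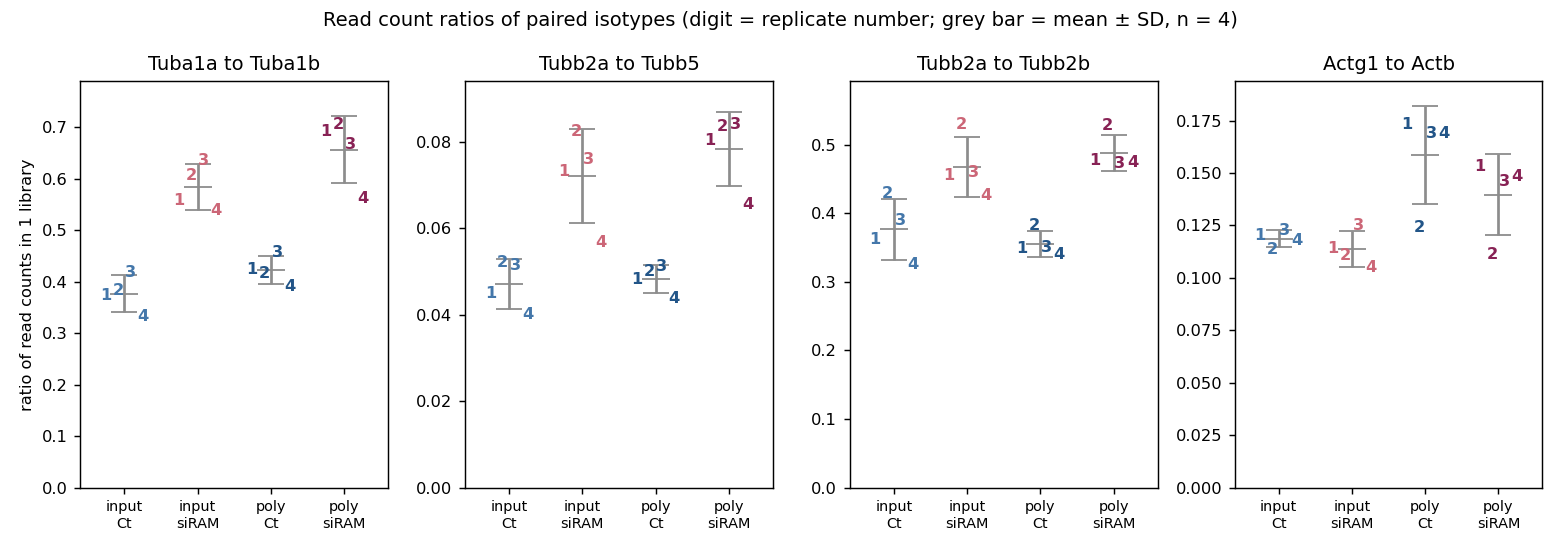
Ratio of read counts of 2 genes in the same library (vertical axes, each from 0) in the 4 groups; digits are replicate numbers and grey bars give the mean ± SD of 4 libraries. The ratios of Tuba1a to Tuba1b and of Tubb2a to Tubb5 are higher in all siRAM libraries than in all Ct libraries of the same fraction, and those of Actg1 to Actb overlap.

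In polysomes, the mRNA engaged by several ribosomes, the same comparison was less precise. No member was called higher or lower by edgeR without the block, where 0.0234% of all genes tested were called lower and 0% higher. DESeq2 and limma-voom also called 0 of the 10, and over all genes 1152 had an unadjusted p under 0.05 in edgeR and 300 an adjusted p under 0.05 in DESeq2. Both groups overlapped for all 10 genes, where 4.38% of all genes tested did not overlap with siRAM lower and 2.18% with siRAM higher. With the replicate block 2 genes were higher and 0 lower, where 9.68% of all genes tested were called higher and 4.97% lower.

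Those genes were again Tuba1a and Tubb2a. Tuba1a had 145, 138, 133 and 139 CPM in polysome Ct and 179, 219, 141 and 179 CPM in polysome siRAM. Its log2 fold change was 0.42 (adjusted p = 0.427) without the block and 0.40 (standard error 0.12, adjusted p = 0.0294) with it. Tubb2a had 83.4, 81.9, 73.1 and 70.7 CPM in Ct and 98.9, 133, 83.2 and 90.3 CPM in siRAM, with a log2 fold change of 0.44 (adjusted p = 0.461) without the block and 0.42 (standard error 0.11, adjusted p = 0.0221) with it. Each was higher in 4 of 4 pairs. In siRAM, replicate 2 was the highest library for 7 of the 10 genes and replicate 3 the lowest for all 10. Without replicate 2 in both groups, the block gave 6 calls, the same 3 lower (Tuba1b, Tuba1c and Tubb5) and 3 higher (Tuba1a, Tubb2a and Tubb6) as in input, and without replicate 1, 3 or 4 it gave 0.

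Tuba1b had 343, 331, 291 and 354 CPM in polysome Ct and 258, 310.0, 212 and 319 CPM in siRAM, lower in 4 of 4 pairs, with a log2 fold change of -0.22 (95% interval -0.59 to 0.15). Tubb5 had 1731, 1634, 1428 and 1619 CPM in Ct and 1231, 1595, 990.2 and 1375 CPM in siRAM, also lower in 4 of 4 pairs, with a log2 fold change of -0.26 (95% interval -0.65 to 0.13). Tubb6 was higher in 4 of 4 pairs with a log2 fold change of 0.23 (95% interval -0.11 to 0.58). Actg1 was lower in 4 of 4 pairs at 0.756 to 0.972 of Ct, with a log2 fold change of -0.16 (95% interval -0.52 to 0.20). Actb had 2938, 3207, 2647 and 2884 CPM in Ct and 2579, 3464, 2316 and 3191 CPM in siRAM, with a log2 fold change of 0.03 (95% interval -0.37 to 0.43). The sign of this value turned with scaling by library size, without a filter, and with all 16 libraries in one fit, and it kept its sign with RLE scaling.

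Polysome libraries against input libraries of the same cells showed a property the group shares with other tubulins. All 10 genes were called higher in polysomes than in input in Ct, at 0.56 (Actb) to 1.18 (Tubb6) on the log2 scale with a median of 0.97, against a median of 0.00 over all genes tested. The 7 other tubulins tested were also all called higher, with a median of 0.96. Of all genes tested, 33.1% were called higher in polysomes, and 30.7% had polysome libraries that all lay above all input libraries, as all 10 genes did. The quantity is relative to the average mRNA, since libraries were scaled by size and TMM factors, and the amount of RNA in each fraction was not used.

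Among Tuba1a, Tuba1b and Tuba1c, Tuba1a had the highest ratio. It was 2.40, 2.30, 2.25 and 2.09 times its input CPM in Ct libraries 1 to 4, a mean of 2.26 ± 0.130, Tuba1b had a mean of 2.01 ± 0.162 and Tuba1c of 2.00 ± 0.249. Tuba1a was above both in 4 of 4 Ct pairs, a difference that was not tested. Other α-tubulins were left out of this order. Of these, Tuba3a had a mean of 54.2 CPM in input Ct and 139.5 in polysome Ct, Tuba3b 21.0 and 51.2, and Tuba4a 137 and 214. Among β-tubulins the mean ratio ran from 1.88 ± 0.198 in Tubb5 to 2.33 ± 0.120 in Tubb6, with Tubb2a at 1.93 ± 0.207, Tubb2b at 2.04 ± 0.263 and Tubb4b at 2.05 ± 0.165. Actg1 had 2.18, 1.90, 2.16 and 1.82, a mean of 2.01 ± 0.183. Actb was the lowest, with 1.51, 1.74, 1.57 and 1.27 and a mean of 1.52 ± 0.193. Its ratio was below that of Actg1 in each of the 4 Ct pairs and its range did not overlap that of Actg1. The log2 value of Actb was 0.56 (standard error 0.14, adjusted p = 0.00434 in edgeR) and that of Actg1 0.97 (standard error 0.13, adjusted p = 6.09e-05). The difference between both actins was not tested.

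In siRAM cells, 9 of the 10 genes were higher in polysomes without the block, where 27.3% of all genes tested were called higher, and 9 had libraries that did not overlap, where 21.4% of all genes tested did not. The exception was Actb, with ratios of 1.39, 1.85, 1.39 and 1.20, a log2 value of 0.52 and an adjusted p of 0.0721. With the replicate block all 10 were called, Actb with an adjusted p of 0.0425, where 28.8% of all genes tested were. The other genes ranged from 0.82 (Actg1) to 1.21 (Tuba1a) on the log2 scale. The tubulin ratios of siRAM cells were uneven between replicates. Tuba1a had 2.63 and 2.77 in replicates 1 and 2 and 1.97 and 1.93 in replicates 3 and 4, and Tubb5 had 1.86 and 2.37 against 1.55 and 1.48.

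**Figure D4:**
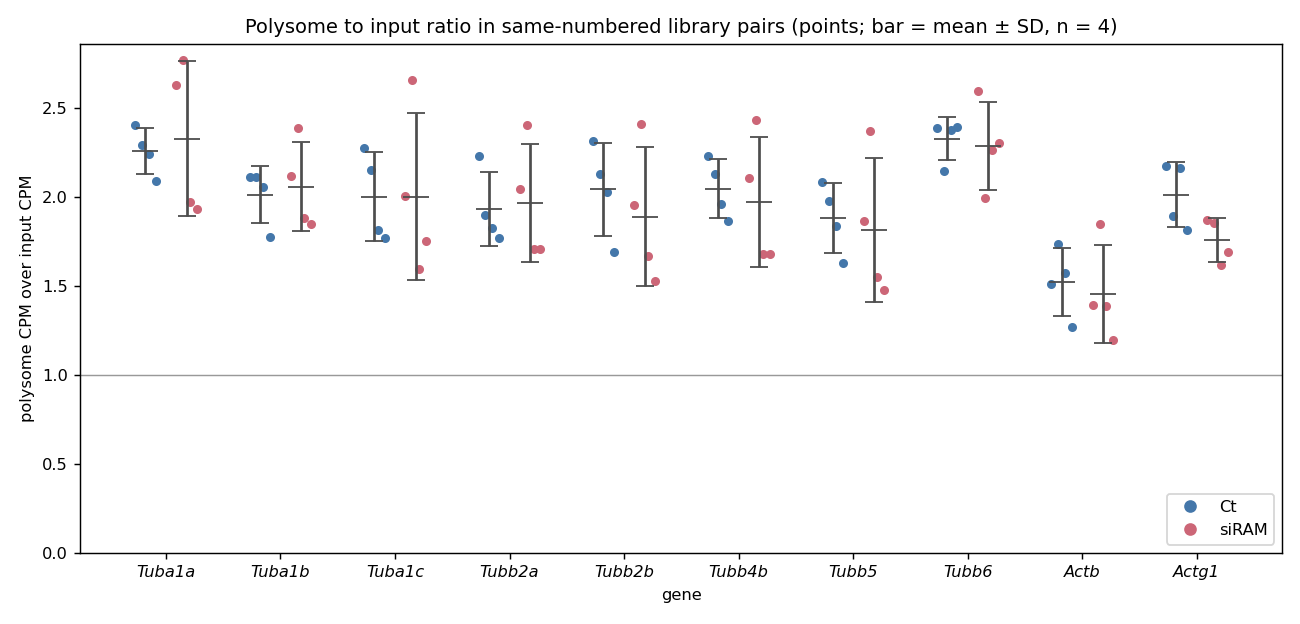
Polysome CPM divided by input CPM of the same-numbered library (vertical axis, from 0) for the 10 genes in Ct (blue) and siRAM (red); points are the 4 pairs and bars give the mean ± SD. All points lie above 1, Actb lies lowest with means of 1.52 in Ct and 1.46 in siRAM, and the Ct and siRAM points of each gene overlap.

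The change in polysome loading, that is the siRAM effect in polysomes beyond that in input, was small next to its error. No gene of the 10 passed in edgeR, where 0% of all genes tested were called lower and 0% higher, and 100 genes had an unadjusted p under 0.05, none of them among the 10. DESeq2 called 1 gene over the whole table, limma-voom 0, and the replicate block within each fraction 2 (0.0156% called lower), none of them among the 10. The values ran from -0.19 (Actg1) to 0.03 (Tubb2a) on the log2 scale. The mean ratio of Actg1 was 1.76 ± 0.122 in siRAM against 2.01 ± 0.183 in Ct, lower in 4 of 4 pairs at 0.749 to 0.977 of Ct, and its loading difference had a 95% interval of -0.64 to 0.25. That of Tuba1a was -0.37 to 0.44 and that of Tubb2a -0.37 to 0.44. The intervals of the loading difference thus allow changes of the size seen in input.

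Of 5 actin genes in the table outside the 10, of which 4 encode muscle forms and Actbl2 does not, 1 passed the filter. This was Acta1, the actin of skeletal muscle. It had 46, 33, 14 and 39 counts in input Ct and 166, 114, 109 and 207 in input siRAM, or 1.76 ± 0.739 and 8.31 ± 2.65 CPM. The groups did not overlap, and Acta1 rose by 2.23 on the log2 scale (adjusted p = 6.04e-04 in edgeR, standard error 0.29). In polysomes the log2 fold change was also 2.23 (adjusted p = 0.0751), and 2.26 (adjusted p = 9.29e-07) with the replicate block. Below the filter, Acta2 of smooth muscle had 6, 7, 2 and 4 counts in input Ct and 31, 16, 7 and 17 in input siRAM, and Actc1 of heart had 7, 1, 0 and 1 against 19, 8, 9 and 14. At 1.15 ± 0.481 CPM per kilobase in input Ct and 5.41 ± 1.73 in input siRAM, Acta1 remained far below Actb. Only 0.437% of its 75-base windows occurred in other genes, and Acta2 and Actc1 shared none. Among 5 markers of mesenchyme and smooth muscle, which include Acta2, the summed level was 15.5 to 21.1 CPM in input Ct and 31.3 to 42.0 CPM in input siRAM. Of these, Tagln rose by 1.49 on the log2 scale (adjusted p = 6.09e-04), Thy1 was at 0.19 (adjusted p = 0.325), and Col1a2 and Acta2 had means below 1 CPM in both. The part of such cells in the result was not tested.

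**Figure D5:**
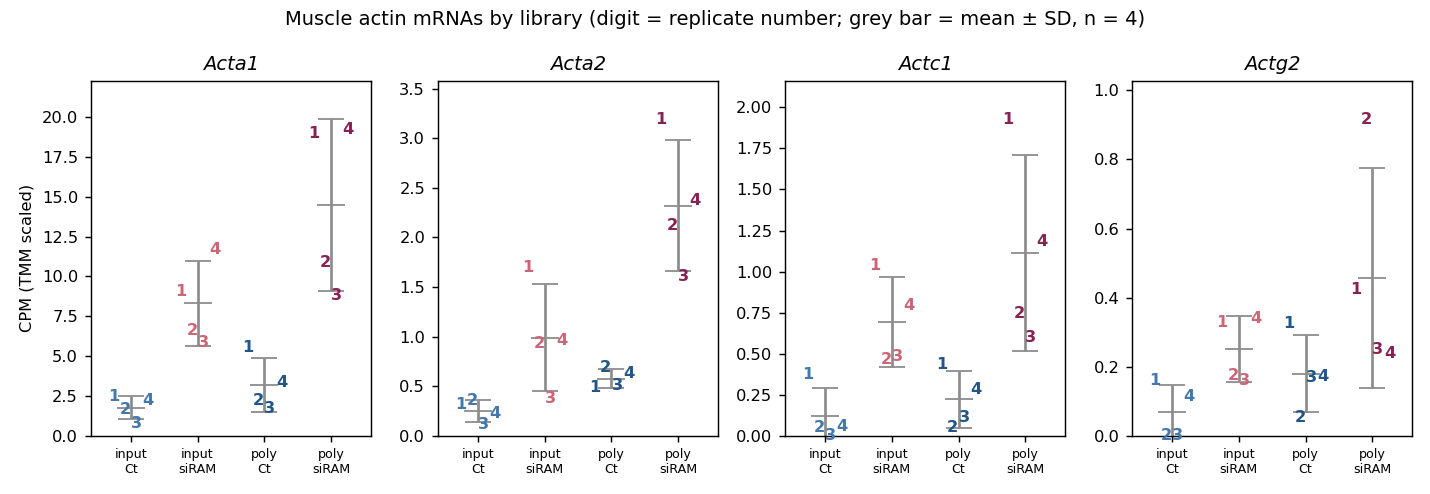
CPM of the muscle actins Acta1, Acta2, Actc1 and Actg2 (vertical axes, each from 0) in the 4 groups; digits are replicate numbers and grey bars give the mean ± SD of 4 libraries. In input the siRAM libraries of all 4 genes lie above the Ct libraries, by a narrow margin in Acta2 and Actg2, and Acta1 reaches 11.7 CPM while the others stay below 2 CPM.

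A CArG box, the element bound by SRF, lies within the promoter window of both Actg1 and Acta1, and the windows are shown because Acta1 was called higher and Actg1 was not (RefSeq, GRCm38.p6, 250 bases before the start, 5′ to 3′ on the minus strand, CArG box in capitals).
Actg1, chr11:120348496-120348745: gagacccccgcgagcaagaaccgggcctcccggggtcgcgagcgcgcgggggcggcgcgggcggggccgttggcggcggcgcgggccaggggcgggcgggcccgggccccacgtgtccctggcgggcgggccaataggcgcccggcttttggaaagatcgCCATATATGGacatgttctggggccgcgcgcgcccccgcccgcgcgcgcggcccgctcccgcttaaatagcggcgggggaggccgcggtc
Acta1, chr8:123894776-123895025: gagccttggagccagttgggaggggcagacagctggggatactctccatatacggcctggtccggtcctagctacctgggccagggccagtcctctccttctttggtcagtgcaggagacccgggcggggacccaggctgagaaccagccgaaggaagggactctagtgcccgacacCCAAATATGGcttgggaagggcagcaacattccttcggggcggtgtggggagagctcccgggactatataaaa
The box starts 90 bases before the start in Actg1 and 73 bases before it in Acta1. The box was counted only in a strict form, with A or T bases alone between CC and GG, as in the capitals above. Of all 32851 promoter windows, each of 300 bases with 250 before the start, 1.63% hold this form on either strand. The windows of Tuba1a, Tuba1b, Tuba1c, Tubb2a, Tubb4b, Tubb5 and Acta2 hold none of it, and that of Actc1 holds 1. Looser forms were not counted, such as ccctatatgg and ccttgtttgg in the Acta2 window, each with a C or G between CC and GG. Actb, Tubb2b and Tubb6 had no entry.

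The factors that act on tubulin and actin were examined as lists. Their counts of calls in input stand beside 5.94% lower and 6.95% higher over all genes tested without the block, and 19.0% and 20.3% with it, and those in polysomes with the block beside 4.97% and 9.68%. The 3 factors of tubulin autoregulation, Ttc5 with its partners Scaper and Cnot11 that bring the CCR4-NOT deadenylase, had log2 fold changes in input of 0.13, -0.17 and -0.01 and none was called with or without the block. Among 21 genes of tubulin folding cofactors, the chaperonin CCT and prefoldin, 1 rose in input, the cofactor Tbce at 0.23 (adjusted p = 0.0417), and with the block the chaperonin subunit Cct7 fell by 0.20 (adjusted p = 0.00138). Of 8 genes of the γ-tubulin complex, which nucleates microtubules, Mzt2 fell by 0.66 (adjusted p = 0.00203), and by 0.49 in polysomes with the block, and the others were not called. Of 13 tubulin modifying enzymes, the deacetylase Hdac6 fell by 0.23 (adjusted p = 0.0474), and with the block Ttll12 rose in both fractions (0.25 in input and 0.43 in polysomes) and Svbp in polysomes (0.57). Of 15 genes of microtubule dynamics tested, Stmn2, a protein that binds free dimers, fell by 0.36 (adjusted p = 0.0169), and with the block 5 fell, Stmn1, Stmn2, Map1b, Ckap5 and Kif2c, and 1 rose, Clip1. Of 7 other tubulins tested, none was called without the block, and with it Tuba4a fell by 0.27 and Tuba3a and Tube1 rose by 0.13 and 0.19 on the log2 scale.

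On the actin side, 17 genes of monomer binding and filament turnover were tested. The depolymerizing factor Dstn fell by 0.42 (adjusted p = 0.00605), the capping subunit Capza1 by 0.38 (adjusted p = 0.0111) and the monomer binding thymosin Tmsb4x by 0.30 (adjusted p = 0.0173), while the profilin Pfn2 rose by 0.41 (adjusted p = 0.00907). With the block Pfn1 also fell and Cfl2 and Twf2 rose, and in polysomes the block called Dstn and Capza1 lower and Pfn2 higher. With the block, 4 lower and 3 higher of 17 in input is near the shares over all genes. None of 9 genes of the Arp2/3 complex, which starts branched filaments, was called without the block, and Actr3 fell and Arpc4 rose with it. Of SRF and 2 actin-sensing cofactors, none was called without the block, and with it Srf rose by 0.19 (adjusted p = 0.00315) and Mrtfa by 0.31 (adjusted p = 0.00936). None of 2 actin maturation enzymes was called in input in either fit. The median log2 fold change of each of these lists in input lay between -0.14 and 0.19, against 0.00 over all genes tested, apart from the muscle actins.

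The genes whose log2 CPM followed a member most closely over the 16 libraries were ranked by Pearson's r among 9124 genes. For Actb they were Thop1 (r = 0.982), Ehd1 (0.977), Pkm (0.972), Gtpbp1 (0.965) and Tysnd1 (0.964). For the mean of Tuba1b, Tubb4b and Tubb5 they were Farsb (0.997), Cct7 (0.994), Ruvbl1 (0.992), Hars (0.992) and Gdi2 (0.992). All 16 points share the difference between input and polysomes, and within the 8 input libraries r was 0.983 for Thop1 with Actb and 0.988 for Cct7 with the tubulins. These are descriptions of shared pattern over libraries.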

How the data were processed

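Stranded RNA-seq libraries depleted of ribosomal RNA (Illumina TruSeq, Ribo-Zero Gold) of 46C ESCs were grouped by fraction and siRNA as labelled. FastQC was run by the authors, who used STAR 2.5.1b with GRCm38 and counted reads per gene with htseq-count; strand and overlap settings and the annotation release are not given in the sources used here. The authors deposited raw counts per gene, without normalization. 0 columns belonged to other samples.

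Genes with at least 1 CPM in at least 10 libraries were tested with edgeR 4.0.16 (TMM, quasi-likelihood) in R 4.3.3 at an adjusted p of 0.05, using the 8 libraries of a comparison, or all 16 for polysome loading. The members and gene lists were chosen with earlier results of these data known. The genes named are the members, Ramac, the list genes called, and the genes most alike in pattern. Acta2, Actc1, Actg2, Stmn1, Kif2c, Pfn1, Cfl2, Twf2 and the cell markers were named after their values were seen. Same-numbered libraries were taken to share an experiment, and input and polysomes of a number to come from the same lysate. The labels give the replicate number and do not state this. The correlation of same-numbered deviations over 9140 genes was 0.400 to 0.797 between input Ct and siRAM, 0.625 to 0.944 in polysomes, and 0.237 to 0.711 between fractions, so each fit was repeated with a replicate block. Alternatives were RLE and library size scaling, 2 other filters, DESeq2 1.42.0, limma-voom (limma 3.58.1), all 16 libraries in one fit, and each library left out. Leaving out a replicate number under the block, and unique 75-base windows in place of length, were chosen after seeing the data. Positions and read windows come from GENCODE on GRCm38. Of the listed genes, 2 symbols (Matcap and Actmap) did not match the table. Protein sequences were not used here. Intervals cover the spread between libraries.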

Additional observations from a re-analysis of the deposited data

Results flagged for a closer look

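In 6 of 44 groups of 4 libraries examined (the 10 genes and Ramac in 4 groups each), the highest or lowest library stood farther from the nearest other library, relative to the whole range, than Dixon's 95% limit allows. For a single group, chance gives this about 1 time in 20. The groups share the same libraries and are not independent, so this rate cannot judge the count. In input siRAM, replicate 4 stood above the other libraries for Actg1 with 279.7 CPM (nearest library 211), for Tuba1c with 87.0 CPM (nearest 66.0), for Tubb5 with 932 CPM (nearest 673) and for Tubb2b with 124 CPM (nearest 106). In input Ct, replicate 4 of Tubb2b stood above the others with 123 CPM (nearest 103). Ramac in input siRAM replicate 2 stood below the others with 2.67 CPM (nearest 3.11). Thus 5 of the 6 concern replicate 4 of input, and the cause was not tested.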

How the results depend on the processing

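Over the 16 alternatives of each gene, all 160 values of polysomes against input in Ct and 155 of 160 in siRAM kept their direction and call, and the other 5 were gains of the call of Actb. In input, 138 of 160 kept both, 7 calls were lost, 8 gained and 7 signs turned. In input, 1 member was called with library size scaling, 6 with the replicate block and 0 with all 16 libraries in one fit, and over all genes 5028 with the block and 186 with all 16. In polysomes the count over all genes was 39 without a filter, 300 with DESeq2, 1875 with the block and 453 with all 16 libraries, and 2 members were called with the block. The log2 fold change of Actb in polysomes was -0.030 with library size scaling, -0.021 without a filter and -0.016 with all 16 libraries. For polysome loading, DESeq2 called 1 gene and the block within each fraction 2. The loading value turned to 0.029 (RLE), 0.059 (no filter) and 0.029 (DESeq2) for Tuba1c, to 0.0083, 0.041 and 0.0084 for Tubb6, and without a filter to 0.010 for Tubb4b and 0.0047 for Tubb5. The causes were not tested.

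Leaving out 1 library gave 913 to 2506 genes and 1 to 5 members called in input, and 0 to 48 genes in polysomes. The log2 fold change ranged in input from -0.11 to 0.14 for Actb, from -0.13 to 0.061 for Actg1 and from -0.022 to 0.11 for Tubb2b, and in polysomes from -0.057 to 0.10 for Actb and from -0.12 to 0.015 for Tubb2b. That of loading ranged from -0.17 to 0.15 for Actb, -0.076 to 0.19 for Tuba1a, -0.045 to 0.24 for Tuba1b, -0.12 to 0.17 for Tuba1c, -0.12 to 0.12 for Tubb2a, -0.22 to 0.0070 for Tubb2b, -0.17 to 0.11 for Tubb4b, -0.18 to 0.13 for Tubb5 and -0.13 to 0.12 for Tubb6. With the block and 1 replicate number left out, the counts were 806 to 4558 genes and 0 to 6 members in polysomes, and 4967 to 9254 genes for polysomes against input in siRAM. In that fit the log2 fold change ranged in input from -0.023 to 0.077 for Actb and from -0.050 to 0.019 for Actg1, and in polysomes from -0.070 to 0.064 for Actb and from -0.13 to 0.0071 for Tubb2b. Without a filter, the median of all genes moved to -0.34 (Ct) and -0.28 (siRAM) for polysomes against input. Acta1 in polysomes and Actb against input in siRAM gained a call with the block.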
